A study of Rattus norvegicus with 6 samples.

Results

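Predicted unannotated miRNAs are candidate microRNAs that the authors' table lists beside the annotated ones and names only by a chromosome and a number, such as chr1_21556. No source used here says from which reads or how they were predicted. The deposited table of rat medial prefrontal cortex held 771 of them and 694 annotated miRNAs, 1465 rows in all. Those described here are the 189 predicted rows that reached a value of 1 or more in 3 or more of the 6 libraries, with blank cells taken as 0. The members were thus chosen by their deposited values, through detection over all 6 libraries and without regard to group. Small RNA was sequenced from the medial prefrontal cortex, a frontal area that takes part in the control of mood and of stress responses, with 1 library per rat and 3 rats per group. For 4 weeks, Control rats met nothing beyond handling and routine cleaning. Rats of the chronic mild stress (CMS) group, a rodent model of depression, met stressors in random order over the same 4 weeks, namely cage tilt, clip tail, reversal of the light/dark cycle, restraint, foot shock, cold water swimming, and deprivation of food or of water. No source used here gives the strain, sex or age of the rats, and no genetic change is named in either group.

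A microRNA is cut from a hairpin in its precursor RNA, and the mature strand guides repression of messenger RNAs that pair with its seed, bases 2 to 8. Prediction programs propose a new hairpin where short reads stack on a genomic stretch that can fold back on itself. Such candidates can be true miRNAs, further copies of annotated ones, or fragments of other RNAs, and a read stack alone does not separate these cases. The sequences of the predicted miRNAs are not part of the deposited table, so what each one is can be judged here only from its name and its values.

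For 3 members the values were those of an annotated miRNA, and the mature sequences of these annotated miRNAs are shown because they are the sequences that the 3 predicted rows may stand for. They are the RefSeq entries for the GRCr8 assembly, with the seed in capitals, while no source used here gives the genome build behind the predicted names.

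miR-24-3p: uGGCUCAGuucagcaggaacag
miR-130a-3p: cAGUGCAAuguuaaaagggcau
miR-1193-3p: uAGGUCACccguuuuacuaucc

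The seeds of the 3 differ from each other. RefSeq lists miR-24-3p at the genes Mir24-1 (chr17:1818672-1818693, minus strand) and Mir24-2 (chr19:40859481-40859502, minus strand), miR-130a-3p at Mir130a (chr3:90229240-90229261, minus strand) and miR-1193-3p at Mir1193 (chr6:134550509-134550530, plus strand). The mature strand of both miR-24 genes is the same, while the hairpins around it are not, as the RefSeq hairpins with the mature strand in capitals show.

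Mir24-1: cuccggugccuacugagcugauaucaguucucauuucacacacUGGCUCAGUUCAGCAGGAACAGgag
Mir24-2: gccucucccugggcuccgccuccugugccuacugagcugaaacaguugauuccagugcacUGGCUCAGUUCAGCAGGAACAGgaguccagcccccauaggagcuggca

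The 6 libraries summed to between 709674 and 736078 of the authors' normalized values, so their totals were close to each other, and the read depth behind them is unknown. Brain miRNAs fixed as markers (miR-124-3p, miR-9a-5p, miR-128-3p, miR-129-5p and miR-138-5p) were all measured, with sums of 82821 to 112855 in Control and 93545 to 101577 in CMS. None of the 5 was at 0. The blood list summed to 171 to 340 in Control and 255 to 438 in CMS, the choroid plexus and epithelium list to 30 to 50 and 49 to 71, the muscle list to 34 to 72 and 17 to 60, the vascular list to 16998 to 21069 and 18140 to 28976, and the oligodendrocyte list to 1488 to 1747 and 1564 to 2595. The liver miRNA miR-122-5p was at 6 to 13 in Control and 6 to 8 in CMS. Group ranges of the sums overlapped for each list, and no listed miRNA was at 0 in all libraries. Of the 22 listed miRNAs, 4 had every CMS value above every Control value (miR-129-5p, miR-200b-3p, miR-34b-3p and miR-145-5p) and miR-449a-5p had every CMS value below. The remaining ones overlapped, and over all miRNAs tested 25.9% did not overlap. Within a list the miRNAs differed: miR-145-5p, a mural cell miRNA, was at 473, 417 and 326 in Control and 935, 514 and 680 in CMS. In the same list miR-143-3p overlapped, at 9601, 12019 and 11706 against 15683, 9402 and 11314. Likewise miR-200b-3p was at 7, 2 and 8 in Control and 27, 11 and 24 in CMS, while miR-200a-3p overlapped, at 11, 4 and 6 against 22, 8 and 22. The vascular, oligodendrocyte and blood sums were highest in CMS 1, at 28976, 2595 and 438. The part of other cell types in the results that follow was not tested. Tissue was measured in bulk, so fewer cells of a type and less RNA per cell cannot be told apart.

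Most of the predicted rows were empty. Of the 771, 519 were blank in all 6 libraries, 63 had a value in 1 or 2 libraries, and 189 (24.5%) met the rule, against 468 of 694 annotated rows (67.4%). Among the members, 131 (69.3%) had a value in every library, compared with 420 (89.7%) of the annotated miRNAs kept by the same rule. Just inside the rule stood 13 rows with a value in 3 libraries, whose highest values had a median of 2 and reached 23. Just outside stood 18 rows with a value in 2 libraries, whose highest values had a median of 1 and reached 2.

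Predicted miRNAs were low compared with annotated ones. The mean over 6 libraries had a median of 2.83 and quartiles of 1.17 and 11.3 among members, and a median of 68.6 and quartiles of 9.50 and 497.4 among annotated miRNAs. A mean under 2 was found for 73 members (38.6%), a mean of 2 to under 10 for 64 (33.9%), a mean of 10 to under 100 for 39 (20.6%), and a mean of at least 100 for 13 (6.88%). Among annotated miRNAs the shares in the same classes were 13.5%, 12.4%, 29.9% and 44.2%. The 10 most abundant members held 64.8% of the members' summed level, and the single most abundant, chr19_15564, held 24.6%.

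**Figure D1:**
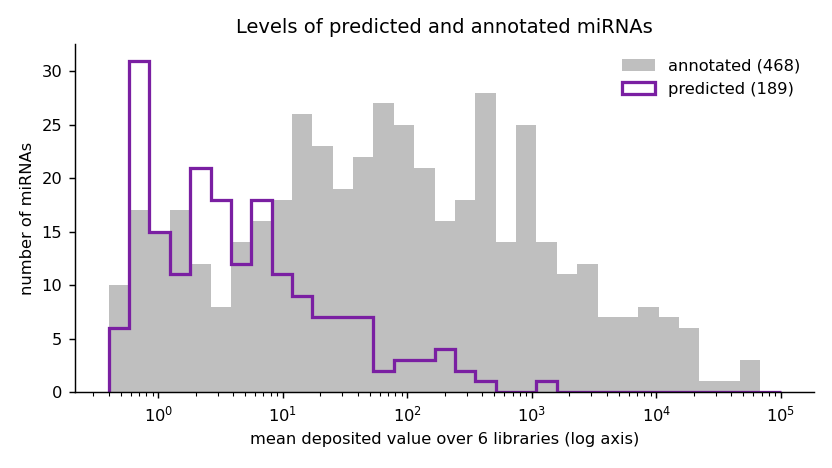
Number of miRNAs (vertical axis) by mean deposited value over the 6 libraries (horizontal log axis), for the 468 annotated miRNAs (grey) and the 189 predicted ones (outline). Predicted miRNAs crowd at the low end, where 73 of them have a mean under 2, and 13 reach a mean of 100.

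Of the 13 members with a mean of at least 100, chr19_15564 ranked 70th among all 657 miRNAs tested and the next, chr1_21556, ranked 134th. The third, chr6_37776, was at 253, 383 and 334 in Controls 1 to 3 and at 245, 176 and 248 in CMS 1 to 3. All its CMS values lay below its Control values, without passing (limma adjusted p = 0.215). The level of chr2_25113 was 306, 265 and 198 in Control and 266, 268 and 279 in CMS, so the CMS values fell inside the Control range. Levels of chr10_2723 (219, 177 and 194 against 217, 258 and 275), chr5_33888 (178, 238 and 220 against 148, 193 and 176) and chr7_40334 (177, 163 and 144 against 132, 157 and 168) also overlapped between the groups. None of these 4 passed (limma adjusted p from 0.220 to 0.761).

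The spread between replicates was like that of annotated miRNAs at the same level. On the log2(value + 1) scale the median replicate SD of members was 0.473, 0.340, 0.330 and 0.246 from the lowest to the highest level class. In annotated miRNAs it was 0.577, 0.320, 0.295 and 0.218. At group means of 1 to 8, the variance between replicates averaged 0.426 times the mean in Control (100 members). In CMS it averaged 0.375 times the mean (98 members). Unscaled read counts would give at least 1, but these values are normalized and the depth behind them is unknown. The same ratio was not taken for annotated miRNAs, and the cause of the low ratio was not tested.

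The member that matched miR-24-3p was the most abundant one. Predicted chr19_15564 had values of 911, 1020 and 1186 in Control and 1433, 1500 and 1393 in CMS, and miR-24-3p, which is encoded beside members of the miR-23 and miR-27 families, had 912, 1021 and 1188 and 1437, 1504 and 1397. The annotated row was above the predicted one in every library, by 1 to 4 units. The chromosome in the predicted name is that of Mir24-2 and not that of Mir24-1. The other arms of the hairpins, which do differ between the genes, were at 107 to 152 for miR-24-2-5p and at 17 to 29 for miR-24-1-5p over the 6 libraries. Every CMS value of chr19_15564 lay above every Control value, with means of 1039 ± 138.5 and 1442 ± 54.1 (SD, n = 3 each). This difference did not reach the threshold (log2 change 0.48 ± 0.12 SE, limma adjusted p = 0.0856).

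The match was exact for chr3_29471 and miR-130a-3p, a miRNA whose seed RefSeq also gives for miR-130b-3p and miR-301b-3p. Both rows held 12, 25 and 24 in Control and 21, 17 and 20 in CMS, with overlapping groups (limma adjusted p = 1.00). It was also exact for chr6_37176 and miR-1193-3p, which lies in the imprinted Dlk1-Dio3 region, at 12, 12 and 10 in Control and 17, 12 and 10 in CMS (limma adjusted p = 0.698). For each of the 3 matches the chromosome in the predicted name is that of a RefSeq gene of the annotated miRNA. A match required a mean of at least 10 and a difference of at most 1% or 1 unit in every library. It was found for 3 of 52 members searched against 468 annotated rows, for no pair of members, and for 1 pair among the 347 annotated miRNAs with such a mean. The same reads may stand behind both rows of a pair, so their values are uncertain.

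At lower means some predicted rows repeated each other, a search added after the values were seen. Rows chr1_20564, chr1_20569 and chr1_20577 each held 7, 8 and 6 in Control and 4, 6 and 6 in CMS. Rows chr2_26476 and chr2_26480 each held 4, 7 and 6 against 8, 8 and 9, and rows chr7_40165 and chr7_40166 each held 7, 5 and 4 against 7, 6 and 10. With a mean of at least 5 these were the 3 groups of identical predicted rows, 7 rows among 79 members, all within 1 chromosome. Among 380 annotated rows with such a mean no group was identical. With a mean of at least 2, 5 groups with 12 of 116 members were identical, and 4 of the 5 lay within 1 chromosome. Among 405 annotated rows with such a mean no group of annotated rows alone was identical. At that level chr4_32863 also held the values of miR-200c-3p, an epithelial miRNA, at 2, 1 and 2 in Control and 5, 4 and 3 in CMS, and RefSeq places the gene of miR-200c-3p on the same chromosome, 4. Small whole numbers can coincide, and whether equal rows rest on shared reads was not tested. Members that repeat each other are not independent rows.

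The predicted names cover 21 chromosomes, 1 to 20 and X. Numbers in the names ran from 8 to 47102, and the number ranges of different chromosomes did not overlap. Chromosome 1 had the most rows, 106, and the most members, 28 (14.8%), followed by chromosome 7 with 18 members (9.52%) and chromosome 2 with 15 (7.94%). The share of rows that met the rule ranged from 4.76% on chromosome 20 (1 of 21) to 42.9% on chromosome 11 (9 of 21).

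Members were placed differently from annotated miRNA genes, as counts without a test. Of the 419 miRNA genes in RefSeq, 63 (15.0%) lie on chromosome 6, which carries the Dlk1-Dio3 cluster, and 57 (13.6%) on chromosome X. Members on these chromosomes numbered 10 (5.29%) and 8 (4.23%). Chromosome 7, with 18 members, carries 12 RefSeq miRNA genes (2.86%), and chromosome 12, with 8 members, carries 5 (1.19%). By summed level chromosome 19 led with 25.4% of the members' total, nearly all of it in chr19_15564, and chromosome 1 followed with 11.7%.

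**Figure D2:**
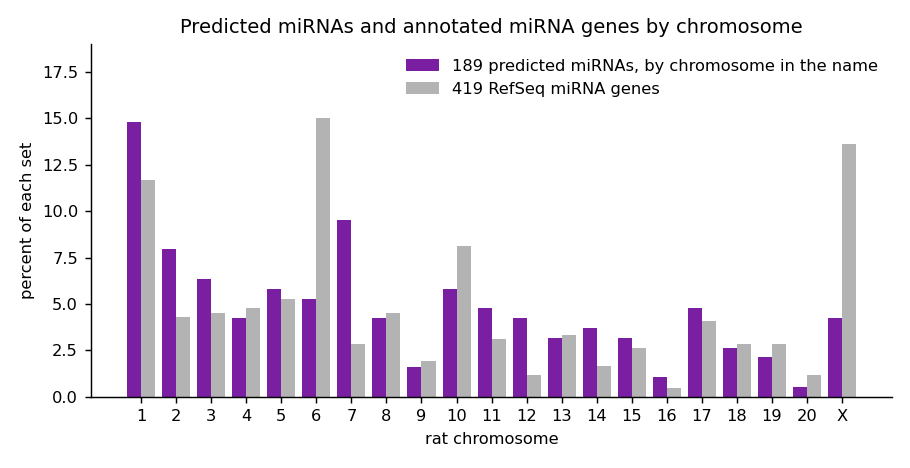
Percent of the 189 predicted miRNAs by the chromosome in their name (purple) and percent of the 419 RefSeq miRNA genes by chromosome (grey). Chromosomes 6 and X hold 15.0% and 13.6% of the RefSeq genes and 5.29% and 4.23% of the predicted miRNAs.

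In 16 cases members next to each other on a chromosome had numbers at most 10 apart, and what such a distance means in bases is not known. The pair with the highest level was chr1_21556 and chr1_21563. The latter was at 18, 13 and 15 in Control and 49, 21 and 22 in CMS, so both rows had every CMS value above every Control value, and chr1_21563 did not pass (limma adjusted p = 0.220). In the pair chr7_40334 and chr7_40333 the means over 6 libraries were 156.8 and 1.33, and in the pair chr2_25113 and chr2_25121 they were 263.7 and 15.8. Levels within such pairs could thus be far apart. Both pairs with means so different were chosen after their values were seen.

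More members were detected in CMS libraries. Of the 189, 168, 166 and 166 had a value in Controls 1 to 3 and 178, 175 and 174 in CMS 1 to 3, so the groups did not overlap. Annotated miRNAs were counted over all 694 rows, without the rule. Those with a value numbered 448, 458 and 456 in Control and 477, 457 and 458 in CMS, where the groups overlapped. All 771 predicted rows counted in the same way gave 177, 174 and 175 in Control and 210, 187 and 185 in CMS, without overlap. By member, 29 had a value in more CMS than Control libraries, 17 in more Control than CMS libraries, and 143 in equal numbers. Among the 468 annotated miRNAs kept by the rule these counts were 25, 15 and 428. Outside the rule, 45 predicted rows had a value in a single library, and 21 of these were in CMS 1, with 3, 4 and 5 in Controls 1 to 3 and 6 each in CMS 2 and CMS 3. CMS 1 was also the library with the most annotated miRNAs detected.

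The summed level of the members was higher in CMS. The sums were 4228, 4485 and 4339 in Control and 6023, 5500 and 5742 in CMS, or 0.574%, 0.624% and 0.599% against 0.818%, 0.775% and 0.808% of each library's total. Every CMS library lay above every Control library, and the CMS mean was 1.32 times the Control mean (4350.7 ± 128.9 against 5755 ± 261.7, SD, n = 3 each). Of the difference of 1404.3, 3 members supplied most: chr1_21556 gave 30.4%, chr19_15564 gave 28.7% and chr14_8167 gave 17.3%. The other 186 members together summed to 3023, 3124 and 2940 in Control and 3538, 3061 and 3481 in CMS. For these the groups overlapped and the CMS mean was 1.11 times the Control mean. The 3 members were singled out after their values were seen.

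**Figure D3:**
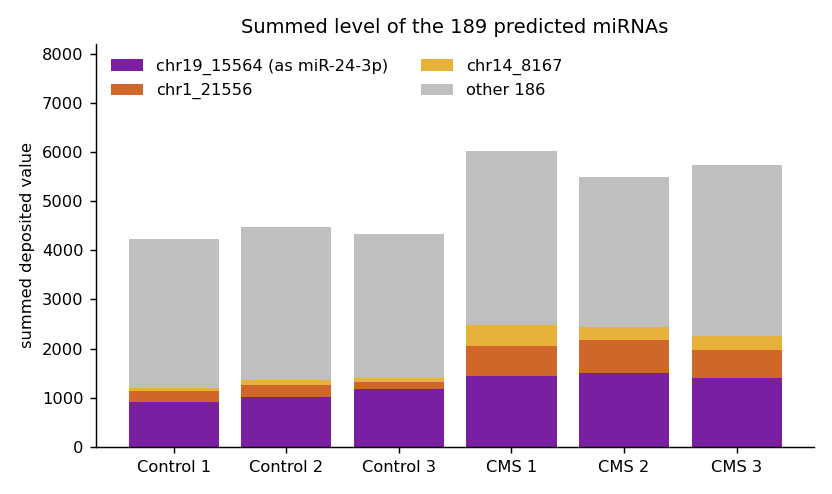
Summed deposited value of the 189 predicted miRNAs in each library, with chr19_15564, chr1_21556 and chr14_8167 shown apart from the other 186. Control libraries reach 4228 to 4485 and CMS libraries 5500 to 6023, and the grey part overlaps between the groups.

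The study compared CMS with Control rats to find changed miRNAs. Of the 189 members, 11 were higher in CMS and 2 lower at a limma adjusted p under 0.05, with p adjusted over all 657 miRNAs tested. This is 6.88% of the members, beside 4.11% of all miRNAs tested (3.35% higher and 0.761% lower). The count includes 6 members, both lower ones among them, that were at 0 throughout 1 group, and these met the rule only through the other group and had to differ. With values in both groups, 7 of 182 members passed (3.85%), all higher, and so did 10 of 464 annotated miRNAs (2.16%) and 17 of all 646 such miRNAs (2.63%). The calls are few, and the difference between these shares was not tested. Group values did not overlap for 41 members (21.7%), 35 with CMS above and 6 with CMS below, against 25.9% of all miRNAs tested (19.6% above and 6.24% below). The 41 include 5 members at 0 throughout Control and 2 at 0 throughout CMS, which by the rule could not overlap. The background includes such rows too, with 3 annotated miRNAs at 0 throughout Control and 1 throughout CMS. At an unadjusted p under 0.05 there were 41 members (21.7%), against 23.3% of all miRNAs tested. By these wider measures the members stood close to the background. The median log2 change was 0.09 in members, 0.08 in annotated miRNAs and 0.08 in all tested, and 102 members (54.0%) had a positive change, against 56.5% of all tested. A negative change was found for 67 members, and the remaining ones had a change of 0.

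The calls differed in kind between level classes. With a mean of at least 100, 2 of 13 members passed (15.4%), compared with 1.45% of 207 annotated miRNAs and 2.27% of all 220 tested. With a mean of 10 to under 100, 4 of 39 passed (10.3%), compared with 1.43% of 140 annotated miRNAs and 3.35% of all 179 tested. Such shares of members rest on few calls. With a mean of 2 to under 10, 2 of 64 members passed (3.12%) against 10.3% of 58 annotated miRNAs, and 1 of the 2 was at 0 throughout Control. Under 2, all 5 called members of 73 and all 3 called annotated miRNAs of 63 were at 0 throughout 1 group, so this class holds no call that the rule on values did not favour. Groups did not overlap for 8.22%, 25%, 33.3% and 46.2% of members from the lowest class to the highest, and for 4.76%, 25.9%, 27.9% and 34.8% of annotated miRNAs. In the class of 10 to under 100 these were 13 members, each with CMS above, and 39 annotated miRNAs, 31 with CMS above and 8 below. In the class under 2, 5 of the 6 members and all 3 annotated miRNAs without overlap were at 0 throughout 1 group. The shares of that class therefore say little. The median log2 change of members was 0.00, 0.02, 0.32 and 0.34 from the lowest class to the highest, and that of annotated miRNAs 0.20, 0.15, 0.08 and 0.06.

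**Figure D4:**
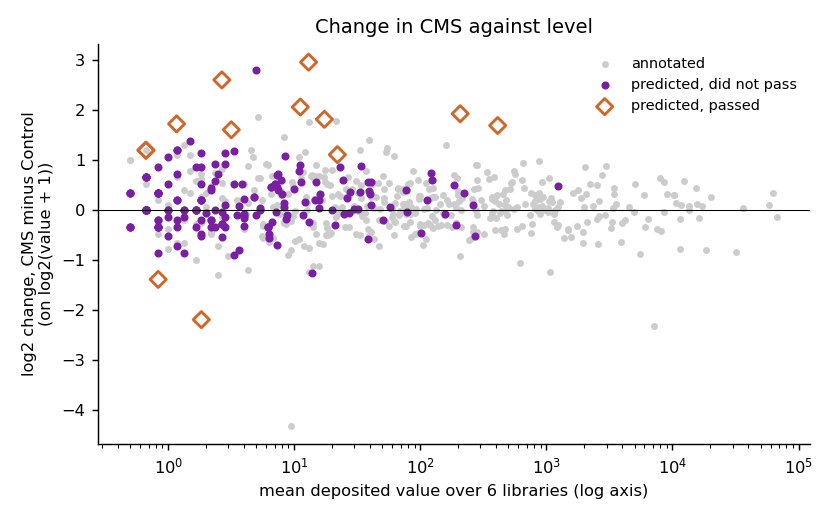
Log2 change (CMS minus Control, on log2(value + 1), vertical axis) against the mean deposited value over 6 libraries (horizontal log axis), for annotated miRNAs (grey), predicted miRNAs that did not pass (purple) and those that passed (orange diamonds, where 2 coincide). The 2 predicted miRNAs that fell lie at means under 2, and 6 of the 11 that rose lie at means of at least 10.

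The most abundant member that rose was chr1_21556. Its values were 221, 230 and 140 in Control and 627, 676 and 570 in CMS, and all CMS values stood above all Control values. It was 3.17-fold higher in CMS (log2 change 1.69 ± 0.22 SE, limma adjusted p = 0.0170). Predicted chr14_8167 was at 73, 111 and 73 in Control and at 425, 263 and 298 in CMS, with the highest value in CMS 1 and no overlap. It was 3.84-fold higher (log2 change 1.93 ± 0.26 SE, limma adjusted p = 0.0170). The call of chr1_21556 was kept in 3 of 6 fits that left out 1 library each, and that of chr14_8167 in 2 of 6.

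Of the 7 called members with values in both groups, the other 5 were at lower levels. Predicted chr4_30556 was at 11, 13 and 17 in Control and 31, 26 and 34 in CMS, a 2.22-fold rise near the threshold (limma adjusted p = 0.0444). Predicted chr19_15815 was at 8, 7 and 6 in Control and 35, 28 and 20 in CMS, a 3.95-fold rise (limma adjusted p = 0.0170). It shares a chromosome, not its values, with chr19_15564.

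Predicted chr11_3476 showed the largest log2 change of the members with values in both groups, from 3, 3 and 1 in Control to 23, 24 and 24 in CMS. The CMS values lay within 1 unit of each other (log2 change 2.96 ± 0.30 SE, limma adjusted p = 0.0104). Predicted chr13_7341 went from 4, 4 and 3 to 20, 22 and 14 (log2 change 2.06 ± 0.22 SE, limma adjusted p = 0.0104). Each of these calls was kept in 3 of 6 fits with 1 library left out. Predicted chr11_3684 held 1 in each Control library and 8, 4 and 4 in CMS (limma adjusted p = 0.0365), and its call was kept in none of 6 such fits. The call of chr4_30556 was also kept in none, and that of chr19_15815 in 2.

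The other 6 called members were at 0 throughout 1 group. Such a row meets the rule only through the group in which it has values, so it had to differ, and its call supports nothing about the members as a whole. Listed at 0 in Control were chr1_16809 (6, 7 and 3 in CMS), chr7_40784 (2, 2 and 3), chr11_4618 (2, 1 and 1) and chr2_25758 (2, 1 and 1). Listed at 0 in CMS were chr2_23725 (5, 3 and 3 in Control) and chr3_29449 (2, 2 and 1), the 2 members that fell. A further member was at 0 in Control and did not pass, chr18_14049, with 6, 1 and 23 in CMS (limma adjusted p = 0.134). In annotated miRNAs 3 were at 0 throughout Control and 1 throughout CMS. No fold is given for these rows. Without 1 library of the group that has values they no longer meet the rule, and of the 3 remaining fits the call of chr7_40784 was kept in 3, those of chr1_16809 and chr2_23725 in 1 each, and the others in none. With the values of 1 and 2 that some of them hold, rounding is large against the difference, and chr11_4618 and chr2_25758 hold the same 6 values on different chromosomes.

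**Figure D5:**
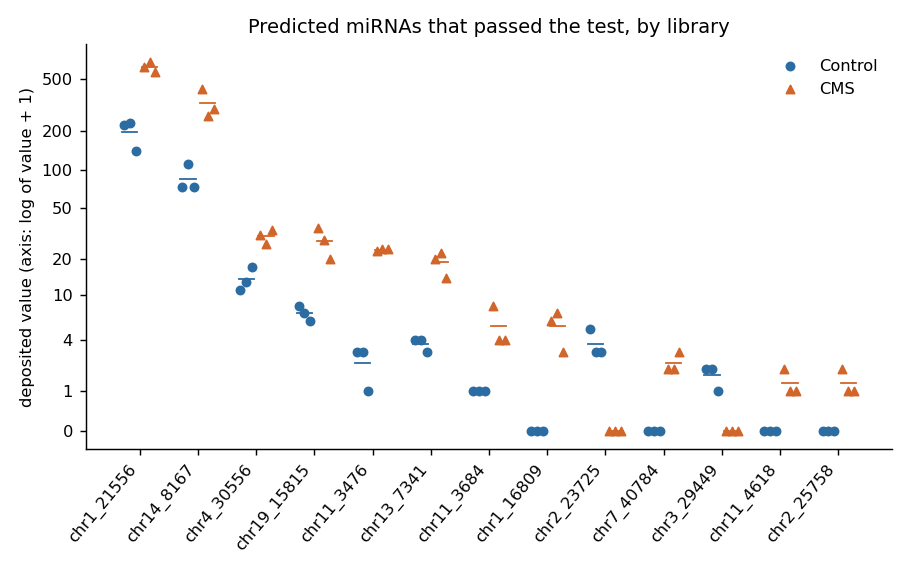
Deposited values in every library (vertical axis, log of value + 1) of the 13 predicted miRNAs that passed, ordered by level, with Control as circles, CMS as triangles and group means as lines. The groups do not overlap for any of the 13, chr1_21556 reaches 570 to 676 in CMS, and 6 members are at 0 throughout 1 group.

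Just short of the threshold stood members at high and low levels that did not pass. Predicted chr8_41919 was at 96, 84 and 93 in Control and 183, 143 and 136 in CMS, and chr4_31045 at 26, 25 and 20 and 50, 37 and 46 (limma adjusted p = 0.0517 for each). Both passed when only miRNAs with a mean of at least 10 were fitted (limma adjusted p = 0.0475 for each), where fewer miRNAs were tested. Low members stood equally close, chosen after their values were seen: chr8_41411 was lower in CMS, at 9, 10 and 9 against 5, 6 and 5, while chr2_24157 (2, 2 and 1 against 6, 5 and 4) and chr10_2986 (1, 1 and 1 against 3, 2 and 3) were higher (limma adjusted p = 0.0517 for each). Also lower was chrX_47102, at 6, 4 and 4 against 2, 2 and 2 (limma adjusted p = 0.0539). Predicted chr15_10168 (35, 28 and 35 against 57, 43 and 46) and chr17_13740 (94, 105 and 94 against 167, 113 and 172) had no overlap and did not pass (limma adjusted p = 0.130 and 0.141).

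Calls changed when single libraries were left out, and each such fit also has 1 rat fewer to detect a change with. The count of called members was 14 of 183 when Control 1 was left out. It was 8 of 185 for Control 2 and 4 of 184 for Control 3. Over all miRNAs tested these fits called 55 of 645, 13 of 644 and 9 of 644. Without CMS 1, CMS 2 and CMS 3 in turn, 0 of 179, 2 of 183 and 2 of 181 members were called. Over all tested these were 2 of 635, 8 of 645 and 5 of 642. Without CMS 1, limma gave 28 members at an unadjusted p under 0.05 and a smallest adjusted p of 0.0646. Over the 6 fits the log2 change of chr1_21556 was 1.462 to 1.818 and that of chr14_8167 was 1.725 to 2.125. These are the 2 most abundant called members. Of the 14 calls without Control 1, 7 were among the 13 and 7 were not. One of the 7 gained, chr2_24139, singled out after seeing its values, was at 8, 29 and 25 in Control and 8, 6 and 7 in CMS, so that Control 1 lay with the CMS libraries (limma adjusted p = 0.0195 without Control 1). Others gained were chr15_9901 (220, 127 and 123 against 219, 201 and 219), chr7_39579 (11, 6 and 6 against 14, 15 and 15) and chr1_17863 (11, 6 and 7 against 15, 13 and 14), where Control 1 was the highest Control.

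Direction partly depended on how libraries are scaled. Rescaling by a trimmed mean and quantile normalization moved the log2 changes of all tested miRNAs by a median of -0.105 and -0.119, and the median change of members became -0.01 and -0.05. Under these, 8 and 12 members turned from a positive to a negative change, and none turned the other way. The members that turned had small log2 changes before, of at most 0.102 and 0.226. Among members whose groups did not overlap, the split of 35 with CMS above and 6 below became 31 and 19 with rescaling and 25 and 14 with quantile normalization. The split moved likewise over all miRNAs tested, from 129 above and 41 below to 102 and 84 with rescaling and 94 and 66 with quantile normalization. Rescaling also separates equal small whole numbers, so rows with ties between the groups can stop overlapping. How many did so was not counted. The called members were split 9 higher and 2 lower under both, and all 11 were among the 13. Over all 657 miRNAs tested, 22 were called with rescaling and 21 with quantile normalization. The 2 members that lost their calls were chr11_4618 and chr2_25758.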

How the data were processed

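Per the labels' protocols, total RNA of 3 rats per group was made into miRNA libraries and sequenced on an Illumina NextSeq. Per the submitters' processing notes the aligner was Novoalign 2.07.11. No source used here gives the trimming, genome build, annotation, prediction method or normalization. The values deposited by the authors were treated as a score, a normalized value rounded to whole numbers. Samples were grouped by title, and blanks were set to 0.

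All 657 miRNAs that reached 1 in 3 or more libraries were fitted together, on log2(value + 1) and unscaled, with limma-trend (limma 3.58.1, R 4.3.3). P-values were adjusted by Benjamini-Hochberg over all of them and called under 0.05. Changes on this scale understate those of low miRNAs. Exact permutation of 3 against 3 cannot give a p below 0.1, so sums and counts over members carry no test. Of 468 annotated miRNAs, 429 matched a RefSeq mature name.

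Named members are those that passed, the 10 with the highest mean, those that match an annotated row and the 5 with the smallest p among the remaining members with a mean of at least 10. Others are said to be chosen after their values were seen, or show the library dependence, the repeated rows, the neighbouring numbers or a group at 0. The members and lists were chosen with earlier results of these data known. Alternatives were 2 scalings, filters, pseudocounts of 0.1 and 10, no trend, blanks as missing, a replicate block and each library left out.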

Additional observations from a re-analysis of the deposited data

How the results depend on the processing

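The count of 13 called members was 8 of 52 tested with a minimum mean of 10 (6 of them among the 13). It was 8 of 189 with a pseudocount of 10 and 8 of 165 with blank cells left out as missing. Over all miRNAs tested, where the main fit called 27 of 657, these fits called 25 of 399, 18 of 657 and 19 of 605. Called members numbered 10 of 252 without a filter and 9 of 131 with a value required in all 6 libraries (6 of them among the 13). Over all tested these were 22 of 754 and 20 of 551. The count of members rose to 17 without the trend and to 19 with a pseudocount of 0.1, each including all 13. Over all 657 tested the count rose to 32 and 40. Leaving out 1 library gave 0 to 14 called members and 2 to 55 calls over all tested. The 11 higher calls became 7 with a pseudocount of 10 and 7 with missing blanks, and 0 to 12 with 1 library left out. They became 13 without the trend and 15 with a pseudocount of 0.1. The 2 lower calls became 0 with a minimum mean of 10, 1 with a value required in all 6 libraries, 4 without the trend, 4 with a pseudocount of 0.1, 1 with a pseudocount of 10, 1 with missing blanks, and 0 to 2 with 1 library left out. The cause was not tested. Sample titles only number the rats, and deviations of rats that share a number had correlations of -0.11, -0.02 and -0.05. With 3 rats per group these values cannot settle whether the numbers pair the samples. With the replicate block limma called 0 members, 0 higher and 0 lower, with 40 at an unadjusted p under 0.05. It called 1 of all 657 miRNAs tested. Leaving out 10 rows that repeat another row, added after the data were seen, kept all 13 calls. Over all tested that fit called 29 of 647.

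The 41 members without overlap numbered 41 to 67 with 1 library left out, the highest without Control 1. Fewer libraries make overlap rarer by construction. These counts were not made over all miRNAs tested, so they cannot be read as particular to the members. The difference of 1404.3 in summed level was 1001.3 without chr19_15564 and 1000.7 without the 3 matched rows. No called member changed direction. Among the 28 members named by rule, changes that did not pass turned sign for chr2_25113 (-0.007 with trimmed-mean rescaling, -0.072 to 0.241 with 1 library left out), chr6_37176 (-0.046 with quantile normalization, -0.040 to 0.315), chr3_29471 (-0.332 to 0.168) and chr7_40334 (-0.163 to 0.015). Depth is unknown, and rounding limits values of 1 to 3.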
